A study of Mus musculus with 2 samples.

Results

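The uroplakin genes Upk1a, Upk1b, Upk2, Upk3a and Upk3b and the related gene Upk3bl were followed in ureters of mouse embryos in which Pparg was deleted in the ureteric epithelium. The members were chosen by name, as every spot that was not a control and carried one of these gene names, and they are 6 genes of 29923 measured, read by 7 of 39429 probes. Uroplakins are membrane proteins of the urothelium, the epithelium that lines the ureter and bladder. The tetraspanins UPK1A and UPK1B pair with single-pass partners, UPK1A with UPK2 and UPK1B with UPK3A or UPK3B, and the pairs assemble into the rigid plaques that cover the apical membrane of superficial (S) cells and make it a barrier to urine. PPARG is a nuclear receptor that binds DNA together with RXR and is known to favour S cell differentiation.

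Ureters were taken from embryos of the NMRI strain at E18.5 and pooled. On each of 2 two-colour arrays, Pparg-cKO ureters of the genotype Pax2-cre/+; Pparg(fl/fl) were set against control ureters of the genotype Pparg(fl/?), whose other allele is not stated in the labels. The array of replicate 1 compared female and that of replicate 2 male embryos, and the dyes were exchanged, so that sex, dye orientation and array cannot be told apart. The deletion is limited to cells in which the Pax2-cre transgene is active, which include the epithelium of the ureter and, in the kidney, that of the collecting ducts. Since whole ureters were taken, fewer cells of a type and less RNA per cell cannot be told apart.

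The direction of every ratio below rests on a choice between sources that disagree. As the dyes are labelled, the red channel held control RNA on the female array and Pparg-cKO RNA on the male one. The deposited table of fold changes, titled Pparg-cKO vs control, ran the other way on both arrays, with a Pearson correlation to the log2 red over green ratio of 0.993 across 25018 probes on the female and -0.994 across 25584 probes on the male array. Signs follow the deposited table, and this direction is the likely one, since the study reads its arrays and its tissue sections the same way. Should the dyes be labelled correctly, higher and lower are exchanged in every sentence and every pool changes its name with its partner on the same array, while sizes and p-values stay. The targeted gene Pparg, read by a probe at chr6:115440213-115440272 (mm9), gave a processed signal of 12357 in the Pparg-cKO and 6113 in the control pool on the female array, and of 12930 and 6688 on the male array. It was thus 1.96-fold higher in the pools called Pparg-cKO (adjusted p = 0.0373 in limma, 0.00332 to 0.533 over 7 alternatives, of which 4 lost the call). By the study's account the floxed allele, once recombined, still yields a shortened transcript. On its tissue sections at E18.5, a probe outside the deleted exons showed more of this transcript in the mutant than in the control. A higher signal thus need not oppose the genotype. Whether the array probe lies in the floxed exons was not analysed here, so the level it read does not check the labels.

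Acta2, Tagln, Myh11 and Cnn1, genes of the smooth muscle in the ureter wall, read between 7367 and 56274 signal units over the 4 pools. Over the 2 arrays, spots well above background made up 66.2% to 67.6% of the red and 76.8% to 77.3% of the green channel, and 0 spots were saturated.

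The probes show which stretch of each transcript was read. Each is 60 bases long and was printed on 4 spots. Their mm9 positions in the array design are chr7:31388111-31388170 for Upk1a, chr16:38773859-38773918 for Upk1b, chr9:44260822-44260881 for Upk2, chr15:84851819-84852720 for Upk3a, chr5:136520522-136520581 for Upk3b, and chr5:136540130-136540189 for Upk3bl. The Upk3a probe covers 902 bases of genome with its 60 bases, so it joins separate exons, and the other probes are continuous in the genome. The last 30 bases of each are given with the hexamer AATAAA, the usual signal for cleavage and polyadenylation of an mRNA, in capitals where they hold it.
Upk1a probe: gttggctggacacccAATAAAtactggctg
Upk1b probe: gacgactctcattcctgtctatgtttaatg
Upk2 probe: ctcttaactgtacttaattctcacAATAAA
Upk3a probe: aaatgacacacgactcacagatcacccagg
Upk3b probe: tggctattaatgacagtcggctacctagcc
Upk3bl probe: aatgccccgaatacctttgtgcttcatctt
The hexamer stands in the printed part of the Upk1a and Upk2 probes, and the Upk3bl probe holds it further upstream in its 60 bases. The longest run of bases shared by probes of different members was 7, and the Upk3b and Upk3bl probes shared no run longer than 6. A second Upk3bl probe at chr5:136540125-136540184 shares 55 bases with the first and is not an independent measurement. Whether a probe lies in coding sequence was not analysed here.

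The uroplakin transcripts did not move as 1 group. Upk1a, Upk1b and Upk3b were lower in the Pparg-cKO pools past the fold rule (1.5-fold or more in 1 direction on both arrays, where the brighter channel read at least 100 signal units), and Upk3bl was higher past the same rule. Upk2 and Upk3a were lower on both arrays but did not pass it. In all, 3 of 6 members passed lower and 1 of 6 passed higher, beside 1.05% of 14015 genes bright enough that passed lower and 0.792% that passed higher. In limma, with Benjamini-Hochberg adjustment over 22499 genes, Upk3b fell and Upk3bl rose at an adjusted p under 0.05. That is 1 member in each direction, beside 0.369% of all genes tested called lower and 0.382% called higher. The median log2 ratio of the 6 genes was -1.02 (female array) and -0.51 (male array), beside -0.01 and 0.01 over all genes tested.

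**Figure D1:**
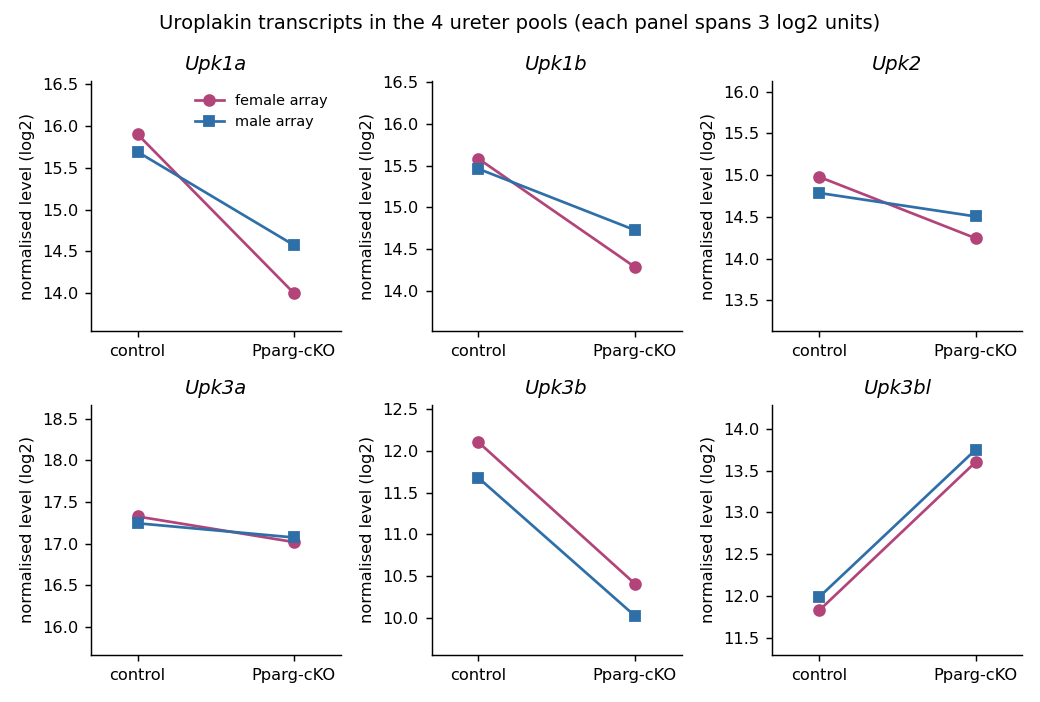
Normalised level (log2, per channel after scaling between arrays) of the 6 uroplakin transcripts in the 4 pools; each line joins the control and the Pparg-cKO pool of 1 array, circles for the female and squares for the male array, and each panel spans 3 log2 units. The lines fall steeply for Upk1a and Upk3b, are nearly flat for Upk3a and climb for Upk3bl, and the control and Pparg-cKO pools do not overlap in any panel.

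The tetraspanin genes were both lower. Upk1a, the partner of Upk2, had a processed signal of 14897 in the female control and 12494 in the male control pool, against 4177 in the female and 5461 in the male Pparg-cKO pool. Both control pools lay above both Pparg-cKO pools, and on the log2 scale of normalised levels the controls (15.90 and 15.69) differed less from each other than the Pparg-cKO pools did (14.00 and 14.57). Its log2 ratio was -1.91 (female) and -1.12 (male), giving a mean of -1.51 ± 0.56 (SD, n = 2 arrays), or 2.85-fold lower. The adjusted p of Upk1a was 0.0685 in limma, so it did not pass. With median centring in place of loess the adjusted p of Upk1a in limma was 0.00629, and over the alternatives with a test it ran from 0.000642 to 0.533.

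Upk1b, the partner of Upk3a and Upk3b, read 12083 and 10385 signal units in the female and male control pools and 5041 and 6246 in the female and male Pparg-cKO pools. It repeated the order of Upk1a, with the female Pparg-cKO pool lowest. It had log2 ratios of -1.30 (female) and -0.73 (male), and their mean was -1.02 ± 0.40 (SD, n = 2), or 2.02-fold lower. The adjusted p in limma was 0.109, and 0.0367 with median centring, within a range of 0.00545 to 0.533 over the alternatives with a test. On the male array Upk1b was 1.66-fold lower, close to the 1.5-fold limit of the fold rule.

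The ratios of Upk2 and Upk3a were nearer to 0. Upk2 read 7411 and 6681 signal units in the female and male control pools and 4485 and 5260 in the female and male Pparg-cKO pools. Its log2 ratio was -0.74 on the female array, or 1.66-fold lower, and -0.28 on the male array, or 1.22-fold lower. The female array alone would pass the 1.5-fold limit and the male array would not, and the mean of -0.51 ± 0.32 (SD, n = 2) had an adjusted p of 0.390 in limma.

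Upk3a, the partner of Upk1b, had the ratio nearest to 0 of the 6 members. It read 41122 and 36165 signal units in the female and male control pools and 31197 and 32498 in the female and male Pparg-cKO pools. The pools still did not overlap, with a gap of 0.17 on the log2 scale between the lowest control and the highest Pparg-cKO pool. Upk3a had log2 ratios of -0.31 and -0.17 on the female and male arrays, a mean of -0.24 ± 0.10 (SD, n = 2), or 1.18-fold lower, with an adjusted p of 0.655 in limma. No spot was saturated, so its high signal was within the range of the scanner.

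Each tetraspanin was thus lower by more than the partner it pairs with in Upk1a and Upk2 and in Upk1b and Upk3a. Upk1a minus Upk2 on the log2 ratio scale was -1.17 (female array) and -0.84 (male array), a mean of -1.0 ± 0.24 (SD, n = 2). Upk1b minus Upk3a was -0.99 and -0.56 on that scale, a mean of -0.78 ± 0.30 (SD, n = 2). These differences with loess were larger than their SD, but with 2 arrays an exact two-sided sign-flip test cannot go below p = 0.5. With median centring Upk1b was at -1.22 (female) and -0.89 (male) and Upk3a at -0.05 and -0.64. The size of their difference on each array thus depended on the processing.

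For the other UPK3-type genes the arrays differed little with loess, though with median centring the SD was 0.28 for Upk3b, above the 0.24 of Upk1b and the 0.23 of Upk2. Upk3b read 1013 and 847 signal units in the female and male control pools and 297 and 248 in the female and male Pparg-cKO pools. On the log2 scale the ratio was -1.70 (female) and -1.65 (male), a mean of -1.67 ± 0.03 (SD, n = 2), or 3.19-fold lower, with an adjusted p of 0.00884 in limma. It was the 28th lowest of 22499 genes tested, Upk1a the 40th lowest and Upk1b the 91st lowest. On the deposited table the adjusted p of Upk3b in limma was 0.533, as it was for Upk1a, Upk1b and Upk3bl.

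Upk3b and Upk3a share their partner Upk1b and had unequal ratios. Upk3b minus Upk3a on the log2 ratio scale was -1.39 (female array) and -1.48 (male array), a mean of -1.44 ± 0.07 (SD, n = 2). The log2 ratio of Upk1b lay between those of its partners Upk3a and Upk3b on each array.

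Upk3bl, named for its likeness to Upk3b, moved the opposite way. It read 820 and 1027 signal units in the female and male control pools and 2901 and 3317 in the female and male Pparg-cKO pools. Both Pparg-cKO pools lay above both control pools, by 1.62 on the log2 scale between the nearest of them. Its log2 ratios of 1.78 (female) and 1.77 (male) had a mean of 1.77 ± 0.01 (SD, n = 2). This is 3.41-fold higher (adjusted p = 0.00778 in limma), and Upk3bl was the 29th highest gene tested. The overlapping second probe gave log2 ratios of 1.57 and 1.62, a mean of 1.59, or 3.02-fold higher.

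**Figure D2:**
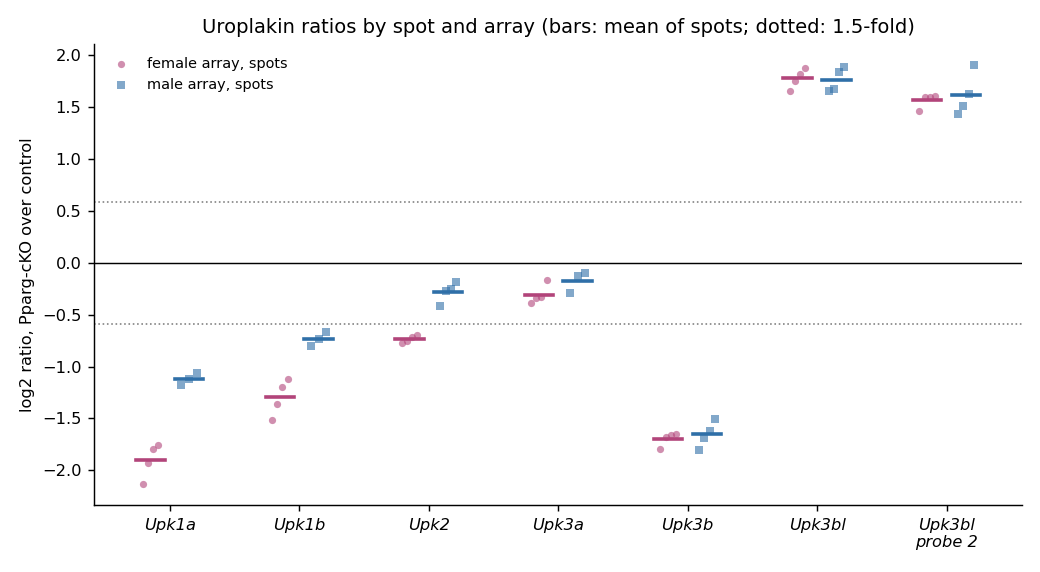
Log2 ratio of Pparg-cKO over control for every kept spot of the 7 uroplakin probes, circles for the female and squares for the male array, with a bar at the mean of the spots; the dotted lines mark 1.5-fold. The spots of the arrays lie apart for Upk1a, Upk1b and Upk2 and overlap for Upk3a, Upk3b and Upk3bl.

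The spots of a probe show the spread within 1 array. They share its labelling, hybridisation and normalisation, so they do not measure the error between arrays. After outlier spots were left out, each probe kept 4 spots on the female and 3 or 4 on the male array. The SD among the spots of 1 probe ran from 0.04 for Upk2 on the female array to 0.21 for the second Upk3bl probe on the male array. For Upk1a the spots ran from -2.14 to -1.76 on the female and from -1.18 to -1.06 on the male array. The Upk1b spots ran from -1.51 to -1.12 on the female and from -0.80 to -0.67 on the male array. For Upk2 the spots ran from -0.78 to -0.69 on the female and from -0.42 to -0.18 on the male array. The spots of these 3 genes did not overlap between the arrays, whereas those of Upk3a, Upk3b and Upk3bl did. The share of all probes without such overlap was not computed, so nothing particular to these genes is read from it.

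With loess the male log2 ratio was nearer to 0 than the female one by 0.79 for Upk1a, 0.56 for Upk1b, 0.45 for Upk2 and 0.14 for Upk3a, and by 0.04 for Upk3b and 0.01 for Upk3bl. This order depended on the processing. With median centring Upk3a was at -0.05 (female) and -0.64 (male) and Upk3bl at 1.72 and 1.91, so that the male value was the further from 0, and with scanner-processed signals Upk3b was at -1.77 on both arrays. For Upk1a, Upk1b and Upk2 the male value stayed nearer to 0 under all 7 alternatives of signal, normalisation, filter and probe. The pan-epithelial genes, a list of 16 genes such as Cdh1 and Epcam that mark epithelial cells in general, also lay higher on the male array, with a median log2 ratio of 0.05 (female array) and 0.49 (male array). Taken relative to that median, the log2 ratio of Upk1a was -1.96 (female array) and -1.61 (male array). Relative to the same median Upk1b was at -1.35 and -1.22, and Upk2 at -0.79 and -0.77. Upk3a was then at -0.36 and -0.66, Upk3b at -1.75 and -2.14, and Upk3bl at 1.72 and 1.28. The arrays thus came closer for Upk1a, Upk1b and Upk2 and moved apart for Upk3a, Upk3b and Upk3bl. The part of epithelial content in these differences was not tested.

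**Figure D3:**
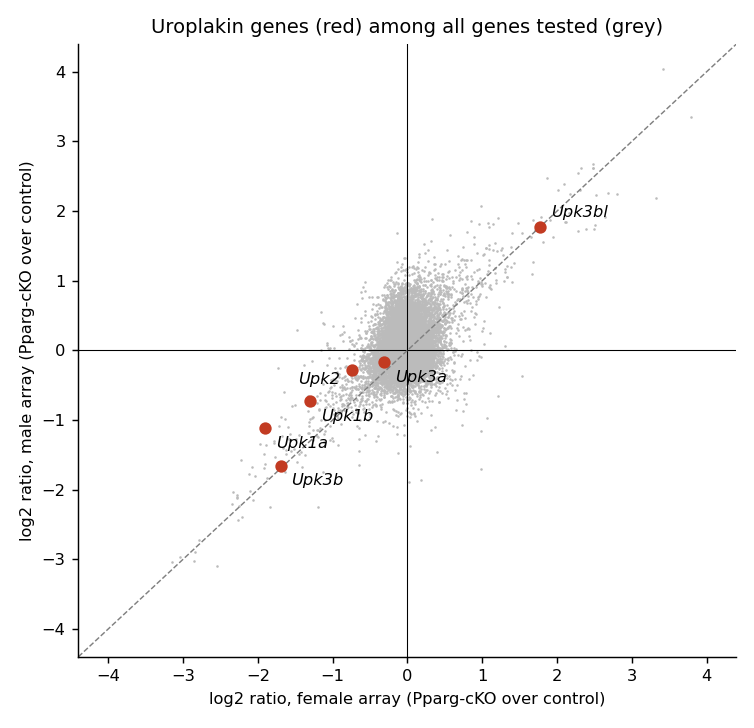
Log2 ratio on the female array (x axis) against the male array (y axis) for 22499 genes tested (grey) and the 6 uroplakin genes (red); the dashed line marks equal ratios. Upk3b and Upk3bl lie on the dashed line at opposite ends, Upk1a, Upk1b and Upk2 lie above it, and Upk3a lies near the origin.

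Over the pools, every member had control and Pparg-cKO pools that did not overlap. Of all genes tested, 18.0% had both Pparg-cKO pools below both control pools, as 5 of 6 members did, and 18.9% had both above, as Upk3bl did. All 6 members were well above background on every kept spot in all 4 pools, so none of their ratios is a bound.

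The genes most like Upk1a, Upk3b and Upk3bl over the 4 pools were sought by the Euclidean distance between log2 levels centred on each gene's mean, among 16056 named genes tested. Nearest to Upk1a was Shh, the hedgehog ligand of the urothelium, at a distance of 0.19 and 2.64-fold lower (adjusted p = 0.0580 in limma). Rnf144b, Fa2h, Cysrt1 and the water channel gene Aqp3 followed, at distances of 0.20 to 0.32, and were 2.50-fold to 2.74-fold lower, with an adjusted p from 0.0263 (Cysrt1) to 0.0868 (Fa2h) in limma. Each of these 5 genes was lower by more on the female than on the male array, as Upk1a was. Since they were sought by their levels in these pools, this likeness follows from the choice and is no separate result. Nearest to Upk3b were Cmbl, S100a5, Bglap, Tmem56 and Htr4, at distances of 0.09 to 0.21, which fell 2.90-fold to 3.63-fold (adjusted p from 0.00728 to 0.0160 in limma). With scanner-processed signals the mean log2 ratio of Bglap was -2.33 in place of -1.65, while that of Upk3b was -1.77. Nearest to Upk3bl were Vsig1, Slurp1, Atp13a4, Lrrc26 and Gsta3, at distances of 0.07 to 0.18, which rose 3.06-fold to 3.72-fold (adjusted p from 0.00728 to 0.0110 in limma). The likeness in size to Upk3bl depended on the processing for 3 of these genes. With scanner-processed signals the mean log2 ratio was 3.11 for Vsig1, 3.17 for Atp13a4 and 2.44 for Slurp1, beside 1.76 for Upk3bl, and with the median over all probes that of Atp13a4 was 1.09. With 4 pools on 2 arrays many genes can share such a pattern, and likeness here describes these pools only.

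Upk3b and Upk3bl are neighbours. Their probes lie 19.6 kb apart on chromosome 5 (mm9), and no other gene's chosen probe lies between them. Upk3bl minus Upk3b on the log2 ratio scale was 3.47 (female array) and 3.42 (male array). Within 250 kb on each side of the Upk3b probe, 16 other genes were tested, and 0 of them passed the fold rule or limma. Their mean log2 ratios ran from -0.22 for Prkrip1 to 0.42 for Cux1. Dtx2, the nearest gene on the other side at 11.8 kb, had log2 ratios of -0.27 and 0.44. With 1.05% of all bright genes past the fold rule lower and 0.792% higher, none among 16 is near the background, and nothing particular to this stretch is read from it. Of 254 genes past the fold rule with a position, 3 pairs with probes within 20 kb of each other went in opposite directions and 10 pairs in the same direction. The other opposite pairs were Psca with Slurp1 and Psca with Lypd2.

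**Figure D4:**
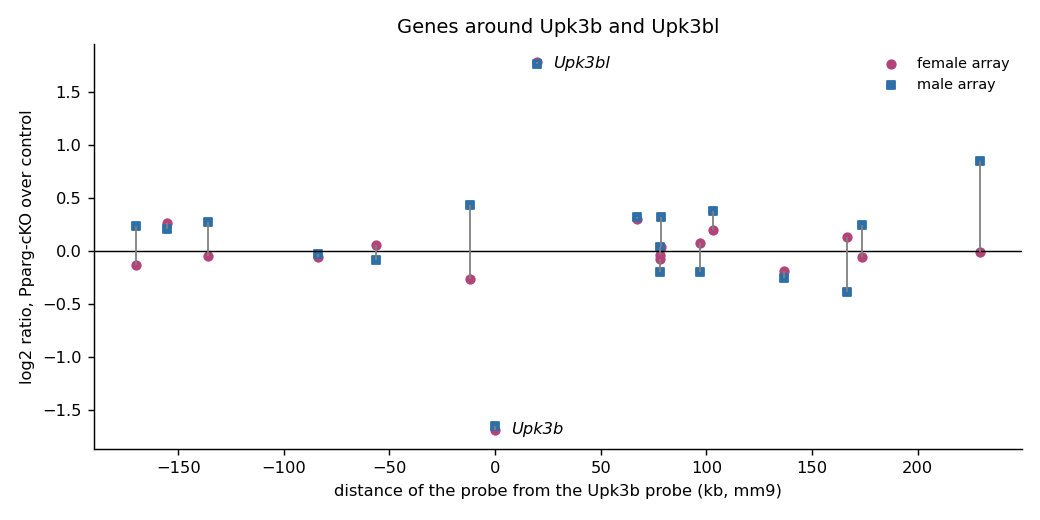
Log2 ratio on the female (circles) and the male array (squares) for genes tested within 250 kb of the Upk3b probe, by the distance of each probe from it in kb (mm9); grey lines join the arrays. Upk3b and Upk3bl stand apart in opposite directions, and the means of the 16 other genes lie between -0.22 and 0.42.

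Neighbours of the other members were counted against the same shares of all bright genes, 1.05% lower and 0.792% higher by the fold rule. Of 27 other genes tested within 250 kb of the Upk1a probe, 1 passed the fold rule, Zbtb32, and 0 passed limma. None of the 4 genes around Upk1b, the 23 around Upk2 or the 12 around Upk3a passed either.

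The promoters of Upk1a, Upk3b and Upk3bl are shown because these members had the largest shifts. RefSeq promoter windows of assembly GRCm38.p6 matched 4 of 6 members, and the 250 bases before the start of the transcript are printed, with matches to AGGTCA, the hexamer of which a PPAR and RXR site is built, in capitals.
Upk1a, GRCm38.p6 chr7:30612735-30612984, minus strand: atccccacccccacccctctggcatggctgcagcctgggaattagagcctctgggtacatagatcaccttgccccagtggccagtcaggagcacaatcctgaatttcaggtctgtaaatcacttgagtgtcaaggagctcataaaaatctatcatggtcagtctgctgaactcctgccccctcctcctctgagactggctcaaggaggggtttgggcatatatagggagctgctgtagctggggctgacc
Upk3b, GRCm38.p6 chr5:136038246-136038495, plus strand: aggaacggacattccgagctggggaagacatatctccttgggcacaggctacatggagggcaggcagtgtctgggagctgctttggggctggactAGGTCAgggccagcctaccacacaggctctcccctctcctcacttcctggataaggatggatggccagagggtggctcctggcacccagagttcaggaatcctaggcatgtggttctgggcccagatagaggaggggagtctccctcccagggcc
Upk3bl, GRCm38.p6 chr5:136057017-136057266, plus strand: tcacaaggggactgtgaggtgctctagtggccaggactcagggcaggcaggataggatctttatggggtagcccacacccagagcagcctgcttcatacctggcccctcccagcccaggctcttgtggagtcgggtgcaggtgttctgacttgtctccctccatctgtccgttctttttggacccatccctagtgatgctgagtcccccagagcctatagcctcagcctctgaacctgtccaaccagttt
Both strands were searched. The Upk3b window held 1 match to AGGTCA, starting 155 bases before the start, and those of Upk1a, Upk3a and Upk3bl held none. Of 32851 promoter windows of the same length, 14.0% held this hexamer. The full direct repeat AGGTCANAGGTCA, which contains the hexamer at both ends, was found in 0.0335% of all windows and in none of the 4. The grainyhead-like motif AACCGGTT was found in 0.116% of windows and in none of the 4. The GC box GGGCGG was found in 32.7% of windows and, among the members, in that of Upk3a alone, which held 2. The letters TATAAA were found in 12.4% of windows and in none of the 4. A match describes letters in a window and is not evidence of binding.

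Of 16 genes of vesicle transport to the apical membrane, all tested, 1 passed the fold rule lower, Stx11, beside the 1.05% of all bright genes given above, and 0 passed limma, and the list's median log2 ratio was -0.03. Stx11, which encodes a syntaxin of membrane fusion, was at -1.18 and -0.85, or 2.02-fold lower (adjusted p = 0.0580 in limma). Mal, which encodes a raft protein of apical transport, had a mean log2 ratio of -0.50 ± 0.29, Snx31, a sorting nexin of urothelial multivesicular bodies, one of -0.49 ± 0.34, and Rab27b, a GTPase of fusiform vesicles, one of -0.40 ± 0.06 (SD, n = 2 arrays). Mall, related to Mal, was at 0.22 (female array) and 1.03 (male array). In limma the adjusted p of these 4 genes ran from 0.344 to 0.504.

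Among 9 regulators known to act on urothelial or uroplakin genes, only Pparg itself passed, as given above, beside 0.792% of all bright genes higher by the fold rule and 0.382% of all genes tested higher in limma, and the list's median log2 ratio was 0.16 (female array) and 0.60 (male array). None of the 9 was lower on both arrays, beside 5887 of 22499 genes tested. Klf5, a zinc finger factor, was at 0.16 (female array) and 1.35 (male array) on the log2 scale. Foxa1, a forkhead factor, was at 0.17 and 1.06, Gata3, a GATA factor, at -0.08 and 1.23, and Elf3, an Ets factor, at 0.33 and 0.60. For Klf5, Foxa1 and Gata3 the SD over the arrays was larger than the mean log2 ratio, and their adjusted p in limma ran from 0.562 to 0.721.

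Most other genes of S cells were lower. Of 10 such genes, 7 passed the fold rule lower and 6 fell in limma, beside 1.05% and 0.369% of all genes by these rules, with a median log2 ratio of -1.97. Krt20, the keratin of mature S cells, fell 8.51-fold, the surface protein gene Ly6d 8.03-fold, the steroid dehydrogenase gene Hsd17b2 7.66-fold, and Sptssb, of sphingolipid synthesis, 6.76-fold. Fam25c fell 4.50-fold and Ivl, of the cornified envelope, 3.41-fold, with adjusted p from 0.00620 to 0.0116 in limma over these 6 genes. Psca was at -1.17 and -0.62 and passed the fold rule alone (adjusted p = 0.147 in limma). The claudin gene Cldn8 was at 0.30 and 0.51, the only one of the 10 above 0 on both arrays, and Cldn4 and Gsdmc had mean log2 ratios of -0.17 and -0.24. None of these 3 passed either test. Several of these genes were chosen by the study on these same arrays, so their direction here is no independent evidence. On tissue sections the study found Krt20, Hsd17b2, Ly6d, Sptssb, Fam25c and Psca strongly reduced or missing in mutants, and Ivl at lower levels.

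**Figure D5:**
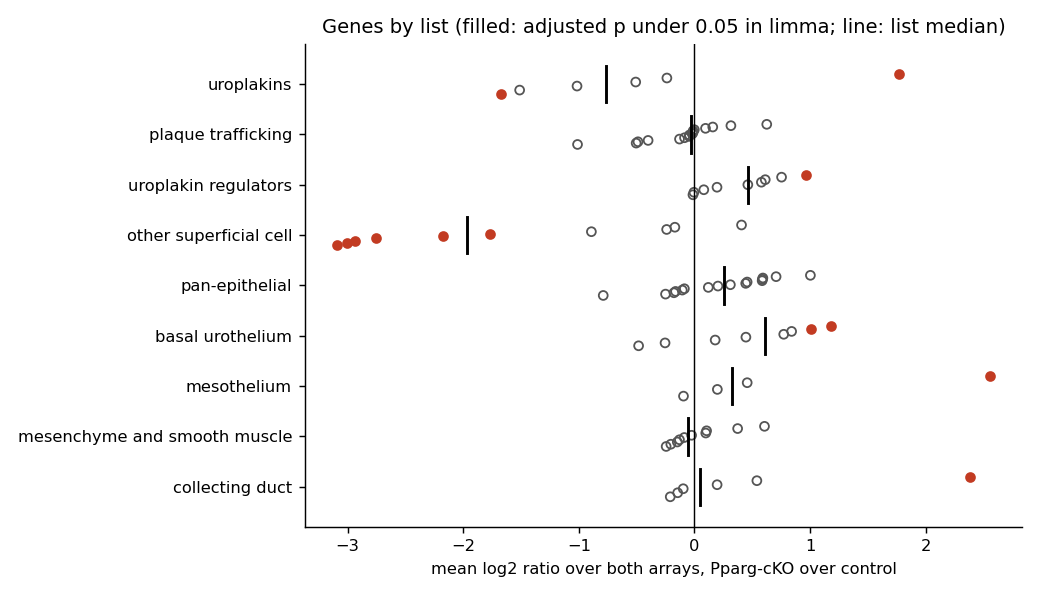
Mean log2 ratio over both arrays of each gene tested, by list; filled points have an adjusted p under 0.05 in limma and the vertical line is the list's median. The other superficial cell genes spread furthest to the left, with a median of -1.97, 5 of 6 uroplakins lie between -1.67 and -0.24 with Upk3bl at 1.77, and the trafficking list centres near 0.

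Markers of other cells were read beside the uroplakins, and the counts of higher genes in these lists stand against the same 0.792% and 0.382%. Among 16 pan-epithelial genes 1 passed the fold rule, Krt19, 2.00-fold higher, and 0 passed limma. The 16 genes summed to a signal of 55633 and 48593 in the female and male control pools and of 48630 and 64354 in the Pparg-cKO pools. Of these sums Krt18, 1.73-fold lower, made 20715 and 16564 in the female and male control pools and 9932 and 11221 in the Pparg-cKO pools. Of 8 basal urothelial genes, Krt14 and Krt15 rose in limma, 2.01-fold and 2.26-fold (adjusted p = 0.0427 and 0.0220, and 0.0962 and 0.0683 with scanner-processed signals). Trp63, the transcription factor of basal cells, was at -0.53 and -0.44, and the basal keratin gene Krt5 at -0.86 and 0.35 (adjusted p = 0.233 and 0.910 in limma). Of 10 mesenchymal and smooth muscle genes, 0 passed either test.

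Upk3b is also a marker of mesothelium, the lining of body cavities, and Msln, which encodes mesothelin, rose 5.87-fold (adjusted p = 0.00620 in limma) where Upk3b fell. Of 7 mesothelial genes 6 were measured and 4 tested, and Msln was the only one that passed. The 6 measured genes summed to 1276 and 1469 signal units in the female and male control pools and to 3965 and 5049 in the Pparg-cKO pools, of which Msln made 514, 726, 3085 and 4384. The defining markers Lrrn4 and Bnc1 were not tested, as they did not exceed background on both arrays. They read 18.6 and 17.5 signal units in the female Pparg-cKO pool and at most 2.57 in the other pools. Rspo1 read 63.8 and 138 signal units in the female control and Pparg-cKO pools and 87.0 and 82.0 in the male ones, and Gpm6a read 71.1 and 121, and 90.3 and 77.7. These 4 genes were thus higher in the female Pparg-cKO pool than in the other 3 pools, whereas Wt1 had log2 ratios of -0.05 and -0.14. In limma the adjusted p was 0.71 for Rspo1 and 0.871 for Gpm6a. The median log2 ratio of the 4 mesothelial genes tested was 0.73 (female array) and -0.08 (male array). Of 7 collecting duct genes, Fxyd4, a regulator of the sodium pump, rose 5.21-fold (adjusted p = 0.00620 in limma), and 0 of the other 6 passed either test, 1 of them untested in limma. Fxyd4 read between 77.4 and 596 signal units over the pools, Scnn1b, of the epithelial sodium channel, between 91.8 and 162, and the water channel gene Aqp2 between 21.8 and 28.1. The part of these cell types in the uroplakin ratios was not tested.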

How the data were processed

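RNA of Pparg-cKO and control ureter pools was amplified, labelled with AlexaFluor555 or AlexaFluor647 and hybridised by the authors. Per the file headers, scanner files (Agilent Feature Extraction 10.7.3.1) held spot intensity on a linear scale (mean, local background and processed signal), the log10 ratio of red over green, and flags. The value table deposited by the authors gives signed fold changes per probe, with N-fold lower written as -N; its background handling is not given in the sources used here, and it served for direction and as an alternative.

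Mean signals were background-corrected (normexp, offset 50) and loess-normalised within arrays with limma 3.58.1 (R 4.3.3), control spots having weight 0. Outlier spots (2.87% and 3.24%) were left out, spots averaged, and the brightest probe taken per gene. Levels per pool were scaled with Aquantile. limma's moderated test used 1 residual and 4.00 prior degrees of freedom. A gene was tested if its probe exceeded background by the scanner's flag, on both arrays, in 1 channel or more. The number of arrays limits the precision, and p-values measure only the spread between 2 arrays. The limma step was tested on simulated data. Tables and figures were made with Python 3.11.15.

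Members and lists were chosen with earlier results of these data known. Named were all members, Pparg, list genes past the fold rule or limma, up to 5 of the largest mean log2 ratios among trafficking genes and regulators, and the 5 genes nearest in pattern to Upk1a, Upk3b and Upk3bl. Prkrip1, Cux1, Dtx2, Zbtb32, Lypd2, Krt5, Trp63, Cldn4, Cldn8, Gsdmc and the marker genes given for tissue, epithelium, mesothelium or collecting duct were named after their values were seen.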

Additional observations from a re-analysis of the deposited data

How the results depend on the processing

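The count of members past the fold rule was 4, with the same genes, under scanner-processed signals, normexp without an offset, median centring, the median over all probes, no intensity threshold, outlier spots kept and the deposited table. It was 3 at 2-fold, without Upk1b, and 5 at 1.2-fold, with Upk2, and the arrays alone gave 4 (male) to 5 (female). Over all genes the rule called 258, then 112 at 2-fold, 865 at 1.2-fold, 1156 (male array alone) and 427 (female array alone). The count in limma was 2, and 4 with normexp without an offset and with median centring, which added Upk1a and Upk1b (169, 571 and 173 calls over all genes), and 0 on the deposited table, where limma called 0 of all genes, with 2101 genes and 4 members at an unadjusted p under 0.05. The cause was not tested. Without an offset the log2 ratios of Upk1a and Upk1b were -1.52 and -1.02 (adjusted p of 0.000642 and 0.00545 in limma), and with median centring -1.56 and -1.06 (0.00629 and 0.0367). On the deposited table Upk3b was at -1.77 and Upk3bl at 1.76, both with an adjusted p of 0.533 in limma. Taken relative to the pan-epithelial median, every gene shifts by construction by the same amount on an array (median over all genes -0.26). Upk3a was then at -0.51, Upk3b at -1.95 and Upk3bl at 1.5. Upk2, at -0.79 (female array) and -0.77 (male array), then also passed the fold rule, which called 311 of all genes. No p-value is given for this setting, since limma's moderated spread then had no gene-wise part. The median log2 ratio of the members, -0.76, ran from -1.03 to -0.75 under these settings and from -1.02 to -0.51 over the arrays alone. No member changed direction under any setting run. The arrays alone gave -1.91 to -1.12 for Upk1a, -1.30 to -0.73 for Upk1b, -0.74 to -0.28 for Upk2, -0.31 to -0.17 for Upk3a, -1.70 to -1.65 for Upk3b and 1.77 to 1.78 for Upk3bl. Of 58 other named genes, 0 changed the direction of their mean over 7 settings added for them after seeing the data. Krt18, Lrrn4 and Bnc1 are not among the 58. The limma calls of Pparg, Krt14, Krt15, Rnf144b, Cysrt1 and Aqp3 were lost with scanner-processed signals. All of these but that of Krt15 were also lost when genes not above background were tested too. That of Pparg was also lost with median centring, and all 25 calls among the 58 were lost on the deposited table. Calls were gained by Stx11, Shh, Fa2h, Psca, Krt19 and Zbtb32 with normexp without an offset, by Stx11 and Shh with the median over all probes, and by Shh with median centring. No paired analysis was possible because the series has 1 group of 2 ratios, each of which already sets a Pparg-cKO pool against the control pool of its own array.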
